A study of Mus musculus with 9 samples.

Results

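The early response of macrophages to bacterial lipopolysaccharide (LPS) was described from RNA-seq of bone-marrow-derived macrophages (BMDMs), comparing 3 LPS libraries (LPS) with 3 vehicle libraries (Veh) out of 9 RNA-seq libraries in the series. A row of the count table is 1 RefSeq transcript, and the 9768 rows, for 9514 gene symbols, that passed edgeR's filter on low counts were kept of 32850 rows in all. The cells came from the marrow of female wild-type C57BL/6J mice aged 8 to 10 weeks and were differentiated for 7 days in medium with 20% L-cell conditioned medium, a source of the macrophage growth factor CSF1. After a day without serum in 4% L-cell conditioned medium, cells of both groups received the solvent DMSO on day 8. LPS cells were given DMSO for 3 hr and then 10 ng/mL LPS for 2 hr. Veh cells were given DMSO and no LPS. The sources used here do not give the time at which Veh cells were lysed for RNA, so the effect of LPS and that of up to 2 hr more in culture cannot be told apart. The study's methods describe independently differentiated cultures for each condition but do not say whether cultures shared an animal, so p-values measure the spread between these cultures. Polyadenylated RNA was sequenced.

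LPS is the outer-membrane lipid of Gram-negative bacteria. It is handed by the surface protein CD14 to a complex of Toll-like receptor 4 (TLR4) and MD-2 (gene Ly96), which signals from the plasma membrane through the adaptor MyD88 and from endosomes through the adaptor TRIF (gene Ticam1). The first branch activates NF-κB and MAP kinases and with them AP-1, and the second adds IRF3 and interferon-β. In macrophages the genes that follow encode cytokines, chemokines, inhibitors that end the signal, adhesion molecules and enzymes that redirect metabolism.

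Libraries held between 13299044 and 16467983 counted reads, and levels are given as CPM, counts per 1000000 reads with library sizes scaled by edgeR's TMM factors. These factors lay between 1.098 and 1.107 in Veh and between 0.902 and 0.917 in LPS. Pearson correlations of log2 CPM were at least 0.994 within groups and at most 0.929 between them, and each pair of replicates differed by more than sampling noise (chi-square per degree of freedom at least 2.58). Macrophage markers were present in both groups: 9 of 10 were measured, with a summed level between 30624 and 32917 CPM in Veh and between 36377 and 38134 CPM in LPS. The exception, Itgam, has 3 bases that no other row shares and no read. The sum hides differences between markers. By the test below 5 were higher in LPS and 2 lower, Fcgr1 by 0.84 and Mertk by 0.81 on the log2 scale. Markers of B cells, mast cells, erythroid cells, megakaryocytes, fibroblasts and adipocytes had no row that passed the filter, and 4 of the 6 erythroid markers have under 200 unshared bases. Out of 9 neutrophil markers, Mmp8 (means 81.6 to 93.8 CPM) and S100a8 (1.02 to 2.36 CPM) passed. Also above the filter were the dendritic cell marker Xcr1 (0.256 to 1.85 CPM), the T cell marker Cd4 (3.23 to 2.23 CPM) and the endothelial marker Kdr (13.7 to 8.71 CPM).

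A row was called when its adjusted p, by the quasi-likelihood test of edgeR and the Benjamini-Hochberg method, was under 0.05, and 6217 rows (63.6% of those tested) were called. Of these, 3188 (32.6%) were higher and 3029 (31.0%) were lower in LPS. Counts within the gene lists below are to be read against these shares of all rows. Most of the changes were small, with a median fold of 1.43 for the higher rows and 0.664 for the lower rows. Over 2-fold, 817 rows (8.36%) rose and 735 (7.52%) fell. Over 8-fold the response was one of increases, with 228 rows (2.33%) higher and 27 (0.276%) lower. The 3 LPS libraries lay wholly above or wholly below the 3 Veh libraries in 67.1% of rows. When library totals replaced TMM factors, the median change over all rows moved from -0.00 to -0.28 on the log2 scale. Then 1742 rows were higher and 5462 lower, and the share of lower rows among the calls was 75.8%, against 48.7% with TMM. Rises smaller than about 0.28 on the log2 scale can therefore turn to falls with library totals, while small falls grow. The text below dwells on larger changes. In whole-culture RNA, fewer cells of a type and less RNA per cell cannot be told apart.

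**Figure D1:**
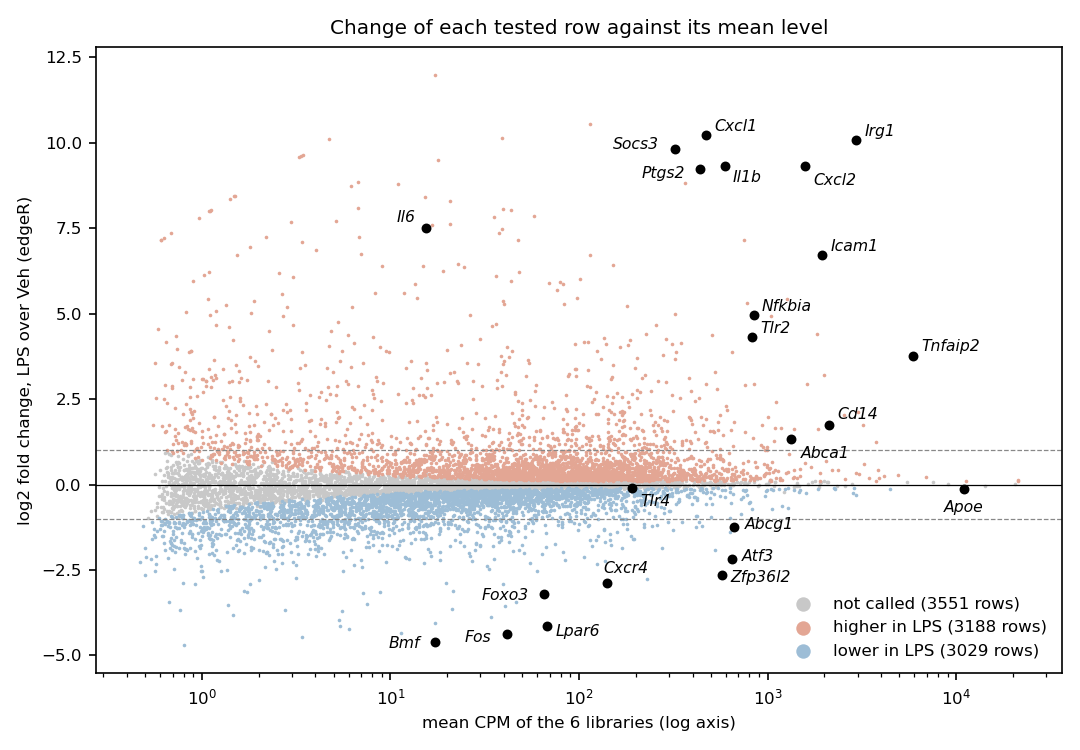
Each point is 1 of the 9768 rows tested, with its mean CPM over the 6 libraries on a log axis and its edgeR log2 fold change, LPS over Veh; red rows were called higher, blue rows lower, grey rows were not called, and dashed lines mark 2-fold. Increases reach a log2 fold change over 10 (Cxcl1, Irg1), while the named genes that fell lie between -4.61 (Bmf) and -0.12 (Apoe), and Tlr4 lies near 0.

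The share of counted reads held by each class of change was also taken. The classes were set from these same libraries, so the direction of each shift was fixed in advance and only its size is described. Rows over 8-fold higher took 0.340 ± 0.005% of the counted reads in Veh and 6.14 ± 0.104% in LPS (mean ± SD, n = 3 per group, as throughout). Rows higher by 2- to 8-fold went from 4.74 ± 0.039% to 12.1 ± 0.254%. Rows lower by 2- to 8-fold went from 2.97 ± 0.031% to 0.889 ± 0.020%. In CPM, which is not corrected for transcript length, the largest gains were those of Tnfaip2 (807 to 11036 CPM), Irg1 (5.54 to 5888 CPM), Icam1 (37.1 to 3861 CPM), Ccl9 (1137 to 4905 CPM) and Tnfrsf1b (1458 to 4917 CPM). The largest losses were those of Apoe (11537 to 10595 CPM), Zfp36l2 (994 to 158 CPM) and Atf3 (1056 to 234 CPM). These 8 genes were picked after their values were seen. Apoe, which encodes apolipoprotein E, fell by 0.12 on the log2 scale (adjusted p = 0.039 from edgeR). It was no longer called without Veh replicate 2 (-0.11) or 3 (-0.13) or without LPS replicate 1 (-0.11) or 3 (-0.08), or in a fit of all 9 libraries (-0.12).

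Among the steepest rises were those of 3 chemokines that attract neutrophils through CXCR2. Cxcl3, at chr5:90786101-90788093 (plus strand) of mm10, stood in the 3 libraries of each group at 0, 0.274 and 0.18 CPM in Veh and 223, 231 and 229 CPM in LPS. Cxcl1, at chr5:90891245-90893115 (plus strand), stood at 0.443, 1.03 and 0.899 CPM in Veh and 943, 919 and 952 CPM in LPS. Cxcl2, at chr5:90903899-90905938 (plus strand), stood at 4.1, 5.27 and 5.45 CPM in Veh and 3146, 3162 and 3125 CPM in LPS. For each gene all LPS libraries lay far above all Veh libraries, whose highest value was 5.45 CPM. The log2 fold changes were 10.56 (SE 0.14, adjusted p = 2.1e-18) for Cxcl3, 10.23 (SE 0.10, adjusted p = 3.4e-20) for Cxcl1 and 9.32 (SE 0.07, adjusted p = 8e-21) for Cxcl2, all from edgeR.

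Because genes of this kind are classical NF-κB targets, the 250 bases before their RefSeq starts (assembly GRCm38.p6, which is mm10) are shown for the 3 chemokines, for 2 NF-κB inhibitors and for the cytokine Il6. Capitals mark matches to the κB consensus, the motif that NF-κB dimers bind, and to the AP-1 motif TGANTCA, both searched on both strands. The windows are chr5:90890995-90891244 (plus strand) for Cxcl1, chr5:90903649-90903898 (plus) for Cxcl2, chr5:90785851-90786100 (plus) for Cxcl3, chr12:55492648-55492897 (minus) for Nfkbia, chr17:45555450-45555699 (plus) for Nfkbie and chr5:30012864-30013113 (plus) for Il6.
Cxcl1: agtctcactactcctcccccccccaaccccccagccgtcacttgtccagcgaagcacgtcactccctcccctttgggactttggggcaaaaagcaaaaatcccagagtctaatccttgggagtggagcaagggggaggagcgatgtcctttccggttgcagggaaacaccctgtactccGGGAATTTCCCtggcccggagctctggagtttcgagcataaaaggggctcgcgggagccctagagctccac
Cxcl2: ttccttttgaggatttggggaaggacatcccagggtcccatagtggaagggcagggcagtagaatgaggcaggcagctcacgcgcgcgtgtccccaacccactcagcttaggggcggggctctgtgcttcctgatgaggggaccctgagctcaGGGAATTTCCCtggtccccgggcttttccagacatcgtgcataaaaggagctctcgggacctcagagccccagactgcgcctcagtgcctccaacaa
Cxcl3: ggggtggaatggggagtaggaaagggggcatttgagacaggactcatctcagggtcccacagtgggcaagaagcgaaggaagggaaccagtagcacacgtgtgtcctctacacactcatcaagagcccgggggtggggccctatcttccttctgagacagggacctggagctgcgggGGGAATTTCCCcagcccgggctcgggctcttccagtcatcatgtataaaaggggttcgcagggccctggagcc
Nfkbia: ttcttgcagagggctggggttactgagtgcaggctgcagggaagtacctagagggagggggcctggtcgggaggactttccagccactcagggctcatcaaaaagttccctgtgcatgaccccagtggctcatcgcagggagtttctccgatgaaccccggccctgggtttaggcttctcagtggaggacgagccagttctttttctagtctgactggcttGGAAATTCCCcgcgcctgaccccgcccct
Nfkbie: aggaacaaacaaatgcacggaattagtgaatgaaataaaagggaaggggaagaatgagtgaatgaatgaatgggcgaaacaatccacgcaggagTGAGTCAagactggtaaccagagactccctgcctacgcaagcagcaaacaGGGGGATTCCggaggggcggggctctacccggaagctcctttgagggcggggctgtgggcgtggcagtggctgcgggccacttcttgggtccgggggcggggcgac
Il6: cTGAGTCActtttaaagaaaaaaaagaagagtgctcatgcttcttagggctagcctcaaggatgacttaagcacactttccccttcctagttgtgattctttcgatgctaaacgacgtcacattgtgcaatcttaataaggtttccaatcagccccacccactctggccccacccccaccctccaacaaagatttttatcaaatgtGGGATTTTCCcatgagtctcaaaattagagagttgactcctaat

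Cxcl1, Cxcl2 and Cxcl3 held the same block of 11 capitals, which began 71, 97 and 73 bases before the start and matches the κB consensus on each strand. In Nfkbia the match began 29 bases before the start. Nfkbie had a κB match at 106 and an AP-1 match at 156 bases, and Il6 had them at 44 and 249 bases. The RefSeq starts used for Nfkbie and Il6 lie 16 and 47 bases from the start of the counted transcript. Of 8308 symbols with 1 row, 5840 matched a RefSeq start within 100 bases. The κB consensus was present in 15% of the 133 promoters of genes over 8-fold higher, in 9.0% of the 310 of genes 2- to 8-fold higher, in 2.8% of the 389 of genes 2- to 8-fold lower and in 4.7% of all 5840. The AP-1 motif was present in 13.5%, 6.8%, 3.9% and 4.2% of the same promoters. Promoters with fewer than 5 CpG dinucleotides made up 36.1% of the first class against 9.4% of all, and TATAAA between 40 and 21 bases before the start was found in 5.3% against 1.3%. These are matches of letters, given as a description without a test, and most promoters of strongly raised genes held neither motif in this window.

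Median gene span differed between the classes of change. Among symbols with 1 row, the median span from first to last exon was 9.65 kb for the 193 over 8-fold higher, with quartiles of 4.42 and 24.8 kb, against 18.8 kb for all 8308. They had a median of 5 exons against 8. Genes 2- to 8-fold higher had a median span of 20.7 kb, and genes 2- to 8-fold lower 14.9 kb. The 25 over 8-fold lower had a median span of 6.68 kb and 4 exons, and 24.0% of them had a single exon, against 3.8% of all.

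**Figure D2:**
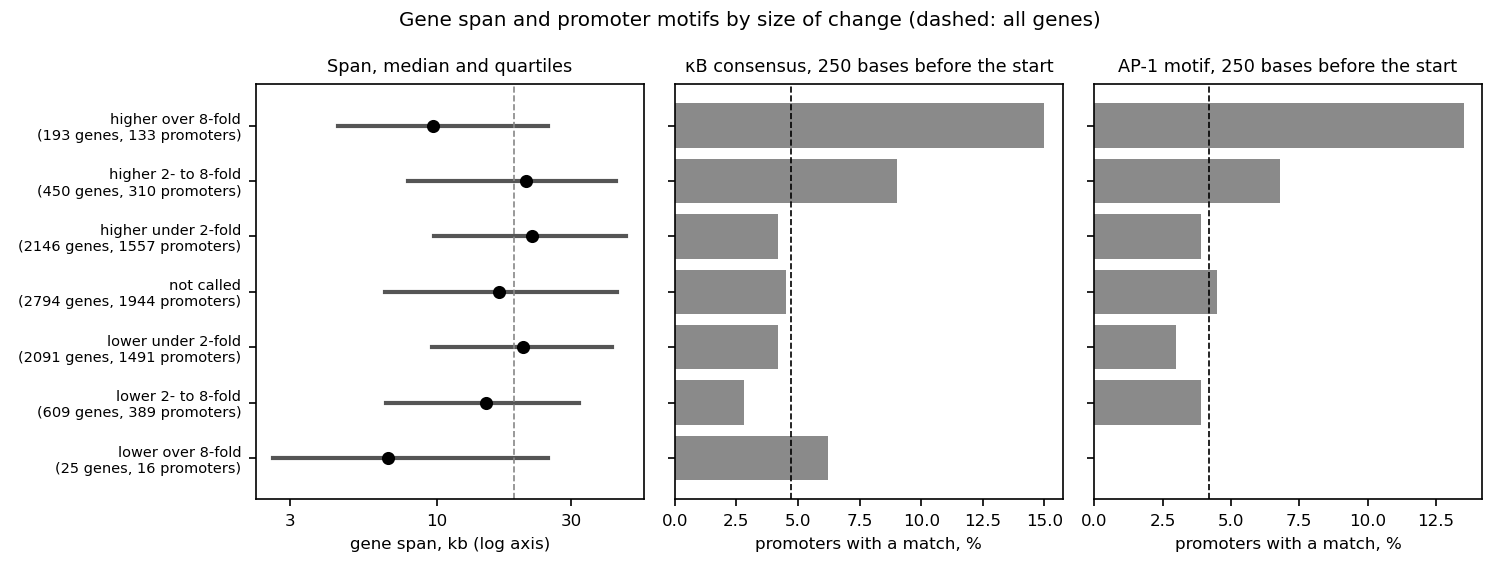
Rows are classes of change among genes with 1 transcript row; the left panel gives the median gene span and its quartiles in kb on a log axis, and the bars give the percentage of promoters with a κB consensus or an AP-1 motif in the 250 bases before the start, with dashed lines for all genes. The class over 8-fold higher has the highest percentage of both motifs (15% and 13.5%) and a median span of 9.65 kb, while the class over 8-fold lower holds 16 promoters and 25 genes only.

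Beyond the chemokines, the 15 largest rises included enzymes, an inhibitor and receptors. They were picked among called rows averaging 5 CPM or more with no overlap between groups. Irg1 (also named Acod1), the enzyme that makes itaconate from an intermediate of the TCA cycle, lies at chr14:103047012-103056573 (plus strand) and stood at 2.88, 6.84 and 6.89 CPM in Veh and 5997, 5879 and 5788 CPM in LPS. Socs3, an inhibitor of JAK-STAT signalling, stood at 0.443, 0.958 and 0.779 CPM in Veh and 682, 621 and 636 CPM in LPS. Ptgs2, which encodes the cyclooxygenase Cox2, stood at 0.387, 1.85 and 2.28 CPM in Veh and 917, 857 and 864 CPM in LPS. No Veh library came near an LPS library for any of them, and the log2 fold changes were 10.08, 9.81 and 9.23. Gbp5, an interferon-inducible GTPase, rose by 8.81 on the same scale. Olr1, a receptor for oxidized LDL, rose by 8.07, Rnd1, a small GTPase, by 8.03 and Gpr84, a receptor for medium-chain fatty acids, by 7.85 on the log2 scale. Adjusted p-values from edgeR for these 15 rows were at most 1.3e-13.

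Of the 228 rows over 8-fold higher, 55 had no more than 3 counts in any Veh library, so their fold depends on very few reads. Il12b, the p40 subunit of IL-12 and IL-23, had 3 reads in Veh and 2957 in LPS, a ratio of 1281 at equal depth with a 95% exact counting interval of 438 to 6217. Edn1, which encodes endothelin-1, had 6 and 1566 reads, a ratio of 339 (156 to 926). Adamts4, a protease of the extracellular matrix, had 2 and 1345 reads, a ratio of 874 (242 to 7226). Tmem200b, a transmembrane protein, had no read in Veh and stood at 33.2, 32.2 and 38 CPM in the LPS libraries, which is at least 189-fold higher when Veh is set to 3 counts a library. Ptx3, Fscn1, Plat, Mycl and Tarm1 had 1 or 2 reads each in Veh and between 390 and 831 in LPS. Bcl2a1a, with 4 and 1161 reads, has close copies in the genome and its count is uncertain. These intervals cover counting error only.

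**Figure D3:**
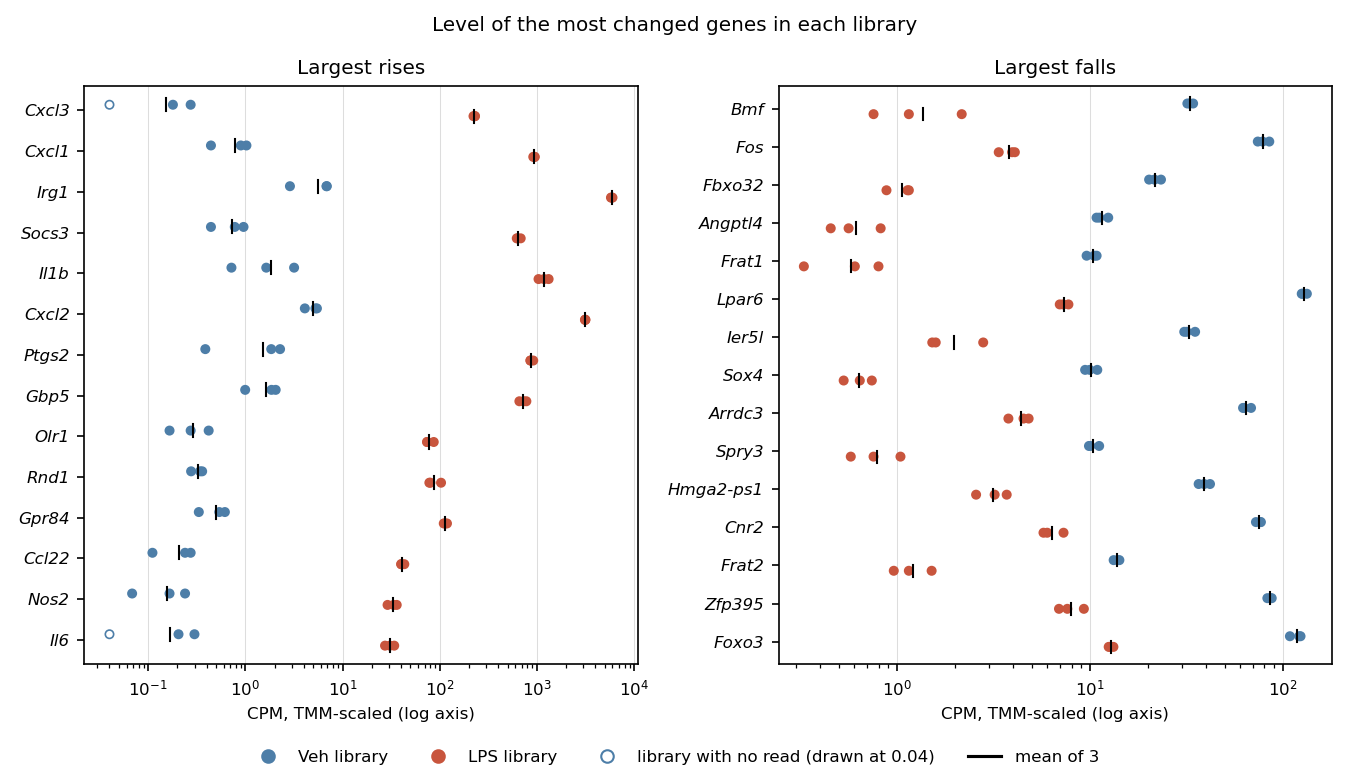
Points are the 6 libraries, blue for Veh and red for LPS, with CPM on a log axis, and black ticks are means of 3; open circles are libraries with no read, drawn at 0.04. The genes on the left rose and those on the right fell. They were picked among rows whose libraries do not overlap between the 2 groups, which holds for 67.1% of all rows tested.

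Cytokines divided into a few that reached high levels and many whose transcripts remained rare at 2 hr. Of 17 rows tested for interleukins and related cytokines, 13 rose and 1 fell, with a median log2 fold change of 3.40, or 2.92 when Ifnb1, which had no read in Veh, is set to its lower bound. Il1b, at chr2:129364580-129371120 (minus strand), stood at 0.72, 1.64 and 3.18 CPM in Veh and 1321, 1186 and 1040.5 CPM in LPS. The groups lay far apart, at a log2 fold change of 9.33 (SE 0.17, adjusted p = 6.9e-17). Il1a rose from 0.597 to 48.8 CPM and Il27, a subunit of IL-27, from 1.29 to 95.4 CPM. Il6 stood at 0, 0.205 and 0.30 CPM in Veh and 27.4, 34.1 and 30.7 CPM in LPS. That is an increase of 7.49 on the log2 scale from a level near no reads. The anti-inflammatory cytokine Il10 rose from 0.795 ± 0.12 to 8.39 ± 0.378 CPM, or by 3.39 on the log2 scale. Ifnb1, which encodes interferon-β, had no read in Veh and stood at 1.23, 2.03 and 0.879 CPM in LPS, at least 7.6-fold higher. Il23a, the p19 subunit of IL-23, had 1 read in Veh and 115 in LPS. Il16 was the member that fell, from 24.9 ± 1.41 to 6.72 ± 1.31 CPM. Osm did not pass, at -0.18 on the log2 scale.

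Ligands of the TNF superfamily were raised in 5 of 9 rows tested and lowered in 1. Tnfsf9, the ligand of 4-1BB, rose from 3.45 ± 0.577 to 298 ± 29.2 CPM, and Tnfsf15, known as TL1A, from 1.83 ± 0.223 to 77 ± 5.64 CPM. Tnfsf4, the OX40 ligand, had 0, 0.274 and 0 CPM in the Veh libraries and 15.2, 15.1 and 10.5 CPM in the LPS libraries. Tnf itself could only be read on the 48 bases that its second transcript does not share with the other, and there the row Tnf.1 went from 4 reads in Veh to 229 in LPS. That row gives a direction but not the level of the gene. Tnfsf12, which encodes TWEAK, fell by 0.50 on the log2 scale. Among 10 rows for growth and colony-stimulating factors 7 rose and 2 fell. Gdf15, a stress-induced TGF-β family member, rose from 12.1 ± 0.964 to 79.3 ± 7.26 CPM, and Csf2, which encodes GM-CSF, had 1 read in Veh and 135 in LPS. Pdgfb fell from 166 to 121 CPM, and it was the only lower member without Veh replicate 1, Veh replicate 2 or LPS replicate 2.

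Chemokine ligands had the highest median change of the 37 lists. Of 20 rows tested, 17 rose and 1 fell, with a median log2 fold change of 4.35, against -0.00 over all rows, and 13 rose over 8-fold. The inflammatory CC chemokines Ccl3, Ccl4 and Ccl5 rose from 46.4 to 963 CPM, 19.6 to 494 CPM and 9.43 to 349 CPM. Ccl2, the monocyte attractant that binds CCR2, stood at 1.72, 2.12 and 2.16 CPM in Veh and 85, 79.5 and 68.9 CPM in LPS. Every LPS library lay above every Veh library, and the log2 fold change was 5.29 (SE 0.12, adjusted p = 7e-16). Ccl22, a ligand of CCR4, rose by 7.61, Cxcl10, an interferon-inducible ligand of CXCR3, by 6.73 and Ccl7 by 5.61 on the log2 scale. Ccl9 and Ccl6 were already abundant in Veh. Ccl9 rose from 1137 ± 17.2 to 4905 ± 147 CPM, and Ccl6 had means of 1272 to 1461 CPM, a log2 difference of 0.20 that became -0.08 with library totals. Cxcl16, the transmembrane chemokine, rose from 167 to 623 CPM and Pf4 from 11.1 to 35.3 CPM. Ccl28 fell from 4.25 ± 0.603 to 2.03 ± 0.935 CPM, and Cxcl14 did not pass, at 0.03 on the log2 scale.

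The genes of the NF-κB system rose almost as a block. Of 16 rows tested for subunits, IκB proteins and their regulators, 15 rose and 1 fell, with a median log2 fold change of 2.75. Nfkbia, which encodes IκBα and lies at chr12:55489409-55492647 (minus strand), stood at 52.3, 50.8 and 55.6 CPM in Veh and 1676, 1690.4 and 1541 CPM in LPS. Nfkbie, which encodes IκBε, lies at chr17:45555716-45563168 (plus strand) and stood at 19.8, 19.5 and 19.8 CPM in Veh and 642, 632 and 613 CPM in LPS. Fitted folds were 30.9 and 31.9, with no overlap between groups and log2 fold changes of 4.95 (SE 0.06, adjusted p = 2.1e-19) and 5.0 (SE 0.05, adjusted p = 9.2e-20). Nfkbib rose by 2.58, and the atypical IκB protein Bcl3 by 3.91 on the log2 scale. Of the DNA-binding subunits, Rel rose from 30.7 ± 0.799 to 270.2 ± 22.5 CPM, Nfkb1 from 177 ± 4.58 to 1340.4 ± 23.5 CPM and Rela from 180.2 ± 2.44 to 618 ± 10.1 CPM, log2 fold changes of 3.14, 2.92 and 1.78. Tnfaip3, the ubiquitin-editing inhibitor A20, was measured on 2 rows with 258 and 173 unshared bases, which rose from 0.471 to 23.1 CPM and from no read to 3.03, 2.86 and 3.12 CPM. Tnip3, a partner of A20, rose by 2.95, while Tnip2, another partner, fell by 0.18, and Nfkbid rose by 0.36 on the log2 scale. Relb and Nfkbiz could not be tested, with 6 and 23 unshared bases.

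The receptor itself did not follow its targets. Tlr4 stood at 207, 195 and 188 CPM in Veh and 175, 176 and 204 CPM in LPS. The groups overlapped, and the log2 fold change of -0.09 did not pass (SE 0.06, adjusted p = 0.19 from edgeR). Tlr4 was called lower without LPS replicate 3 (-0.18 on the log2 scale), with no filter on low counts, with upper-quartile factors and with library totals (-0.37). Its co-receptor Cd14 stood at 986, 949 and 996 CPM in Veh and 3134, 3456 and 3121 CPM in LPS. All LPS libraries lay above all Veh libraries, at a log2 fold change of 1.73 (SE 0.05, adjusted p = 8.1e-15). Ly96 had 54 unshared bases, with 4 reads in Veh and 2 in LPS, and was not tested. Tlr2, the receptor for bacterial lipopeptides, stood at 77.8, 78.5 and 82 CPM in Veh and 1545, 1576 and 1597 CPM in LPS. It rose by 4.31 on the log2 scale, and its partners Tlr1 (row Tlr1.1) and Tlr6 rose by 2.61 and 1.67. The endosomal receptor Tlr9, for unmethylated DNA, fell from 59.5 ± 5.14 to 36.8 ± 4.88 CPM. In all, 5 of 13 rows for Toll-like receptors and co-receptors rose and 3 fell, and with library totals 5 rose and 8 fell. The first shares, 38.5% and 23.1%, stand beside 32.6% and 31.0% of all rows.

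Adaptors and kinases below the receptors were mostly raised, with 19 of 24 rows higher and 4 lower and a median log2 fold change of 1.09. Myd88 stood at 109, 109 and 109.5 CPM in Veh and 258, 287 and 264 CPM in LPS. Its groups did not overlap, and the log2 fold change was 1.3 (SE 0.05, adjusted p = 5.7e-13). Ticam1 stood at 52, 46.7 and 49.1 CPM in Veh and 57.4, 62 and 60.0 CPM in LPS, again without overlap but with a log2 fold change of 0.28, which became -0.00 with library totals. Its bridging partner Ticam2 rose by 1.36 on the log2 scale. The largest increases were those of Ripk2, the kinase of NOD1 and NOD2 signalling, from 19.1 ± 1.43 to 355 ± 9.5 CPM, Traf1 from 11.7 ± 0.583 to 211 ± 14.4 CPM and Peli1, a ubiquitin ligase, from 57.2 ± 3.52 to 470.5 ± 2.26 CPM. Irak3, the inhibitory IRAK-M, rose by 1.54 on the log2 scale. Tab1, a partner of the kinase TAK1, fell from 34.4 ± 2.41 to 12.6 ± 0.852 CPM. Tab2, another partner of that kinase, rose from 211 ± 8.39 to 525 ± 25.8 CPM. Irak4 fell by 0.24 and Ripk1 by 0.31 on the log2 scale.

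**Figure D4:**
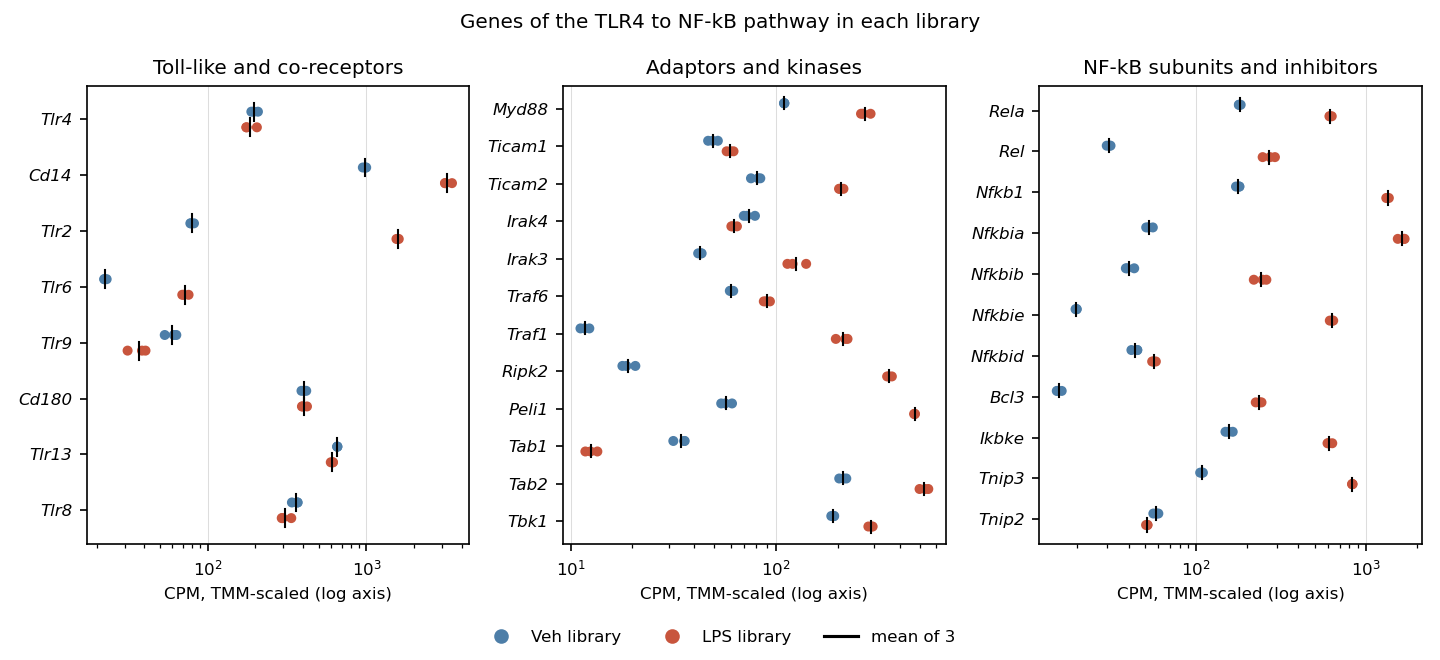
Points are CPM in the 6 libraries on log axes that differ between panels, blue for Veh and red for LPS, and black ticks are means of 3. Tlr4, Cd180 and Tlr13 lie at nearly the same level in both groups and Tlr9 and Tab1 are lower in LPS, while the NF-κB panel is shifted to the right except for Tnip2.

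Transcription factors outside NF-κB moved in both directions. Of 19 rows for AP-1 and ATF factors, 10 rose and 4 fell, and with library totals 8 rose and 8 fell. Fos, at chr12:85473901-85477270 (plus strand), stood at 84.7, 78.2 and 73.9 CPM in Veh and 3.94, 4.07 and 3.36 CPM in LPS. It was lower in every LPS library, by 4.38 on the log2 scale (SE 0.09, adjusted p = 5.4e-16 from edgeR). Atf3 fell from 1056 ± 14 to 234 ± 15 CPM and Jun from 279.7 ± 9.87 to 98.2 ± 5.64 CPM, while Junb rose from 253 ± 11.3 to 742 ± 7.3 CPM. Maff, a small Maf protein, rose from 2.56 ± 0.416 to 157 ± 12.1 CPM and Batf from 4.27 ± 0.306 to 34.2 ± 1.08 CPM, and the row Jdp2.2 rose by 5.45 on the log2 scale. Fosb was below the filter. Among 25 rows for EGR, KLF and other immediate-early genes 15 rose and 8 fell. These shares are 60.0% and 32.0%, against 32.6% and 31.0% of all rows. The growth-arrest relatives Gadd45b and Gadd45g went opposite ways, from 63.2 to 418 CPM and from 34.6 to 4.69 CPM. Klf7, Klf3 and Klf6 rose by 3.53, 1.95 and 1.26 on the log2 scale, and Klf4, Klf11 and Klf9 fell by 1.76, 1.80 and 1.14. The kinase gene Pim1 rose from 96.2 to 951 CPM and Ier5l fell by 4.05 on the log2 scale.

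Factors of macrophage identity included both rises and falls. Of 21 rows, 12 rose and 7 fell (57.1% and 33.3%). The share that fell is near the 31.0% of all rows, and 32.6% of all rows rose. Spi1, which encodes PU.1, rose from 575 ± 3.05 to 1280.5 ± 53.8 CPM. Tfec, Ets2 and Cebpd rose from 10.5 to 181 CPM, 41.6 to 615 CPM and 30.9 to 263 CPM, and Hif1a, the oxygen-regulated factor, from 139.7 to 317 CPM. Fli1 fell from 120.3 to 57.8 CPM and Bach1 from 276 to 166 CPM. Interferon regulatory factors had 3 of 8 rows higher and 4 lower. These rows belong to 6 gene symbols, and with rows summed per symbol 1 rose and 3 fell. Irf8, the myeloid interferon regulatory factor, at chr8:120736376-120756692 (plus strand), stood at 447, 462 and 445 CPM in Veh and 183, 177 and 173 CPM in LPS. The groups did not overlap, and the log2 fold change was -1.34 (SE 0.04, adjusted p = 6.4e-14) from edgeR. Irf1 was read on 2 rows with 219 and 1003 unshared bases, which rose by 2.86 and 3.11 on the log2 scale. Cebpb, Runx1 and Irf7 have no unshared base and were not measured. Nuclear receptors had 4 rows higher and 7 lower of 16. Nr4a3 had 3 reads in Veh and 193 in LPS, Esrra rose by 0.89, and the row Pparg.1, Nr1d1 and Nr2c2 fell by 1.00, 1.03 and 1.02 on the log2 scale.

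STAT, phosphatase and mRNA decay genes each moved in both directions. Among 13 rows for STATs, JAKs and SOCS proteins 8 rose and 2 fell, or 1 fell without Veh replicate 2 or LPS replicate 2. With library totals 6 rose and 5 fell. Cish, a SOCS-family inhibitor, rose from 0.35 to 29.5 CPM, Jak1 rose by 0.68, and Socs6 fell by 0.77 on the log2 scale. Of 18 rows for MAP kinase phosphatases 7 rose and 9 fell. Dusp2 and Dusp4 rose from 2.97 ± 0.156 to 56.6 ± 2.34 CPM and 57.7 ± 4.64 to 307 ± 1.95 CPM, Dusp1, an early inhibitor of p38, from 49.9 ± 4.8 to 92.4 ± 3.54 CPM, and Dusp6, which acts on ERK, fell from 41.7 ± 3.21 to 10.3 ± 1.01 CPM. Among the regulators of cytokine mRNA decay, relatives moved apart. Zfp36, which encodes tristetraprolin, rose from 137 ± 4.53 to 276 ± 5.34 CPM. Its paralogs fell, with Zfp36l2 at 1010.0, 1014 and 959 CPM in Veh and 152, 152 and 168 CPM in LPS and Zfp36l1 at 132, 149 and 135 CPM in Veh and 28.9, 29.9 and 30.9 CPM in LPS. The groups of each paralog are far apart, with log2 fold changes of -2.66 and -2.21. The endonuclease genes Zc3h12a (regnase-1) and Zc3h12c rose from 33.9 to 361 CPM and 28.5 to 553 CPM, and Zc3h12d fell from 70.6 to 18.4 CPM. Mapkapk2, the kinase that acts on tristetraprolin, rose from 351 to 1867 CPM. In all, 7 of 10 rows rose and 3 fell.

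Interferon-stimulated genes were raised in part. Of 37 rows, 25 rose and 1 fell, with a median log2 fold change of 0.63 and 15 rose over 2-fold. Library totals lowered the median to 0.35. Leaving out Veh replicate 1, in which the summed level of the list was 1728 CPM against 2322 and 2469 CPM in the other Veh libraries, lowered it to 0.37, with 22 rows higher and 3 lower. Behind Gbp5, Ifi205 rose by 6.45 and Gbp2 by 3.8 on the log2 scale, though Ifi205 belongs to a family of similar genes whose reads may be split. The antiviral genes Rsad2, Isg15 and Ifit1 rose from 48.9 to 288 CPM, 15.4 to 102 CPM and 32 to 140.4 CPM. Others did not pass, among them Oasl2 and Bst2, with log2 fold changes of 0.10 and 0.06. Oas2 fell from 66.8 ± 14.9 to 42.5 ± 8.52 CPM.

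Cytokine receptors showed smaller and mixed changes. Of 35 rows, 22 rose and 7 fell, with a median log2 fold change of 0.34, and with library totals 15 rose and 11 fell. Tnfrsf1b, the second TNF receptor, stood at 1492, 1439.9 and 1443 CPM in Veh and 4916, 4865 and 4970.5 CPM in LPS, with no overlap and a log2 fold change of 1.75. Tnfrsf1a differed by 0.18 on the log2 scale, or -0.10 with library totals. On their rows with the most unshared bases the chains of the interferon receptors rose, Ifngr1 by 1.58, Ifngr2 by 0.47, Ifnar1 by 1.27 and Ifnar2 by 1.34 on the log2 scale. Il17ra rose by 2.04, Il4ra by 1.13 and Fas, on its row Fas.1, by 3.55 on the log2 scale. Both chains of the IL-6 receptor fell, Il6ra from 107 ± 1.37 to 47.5 ± 4.41 CPM and Il6st from 391 ± 4.66 to 265 ± 18.9 CPM. Of receptors for chemoattractants 8 of 15 rows rose and 5 fell, and with library totals 7 rose and 7 fell. Cxcr4, the receptor of CXCL12 at chr1:128588199-128592299 (minus strand), stood at 267, 233 and 245 CPM in Veh and 29.9, 35.3 and 35.1 CPM in LPS. Its groups lay apart, and the log2 fold change of -2.89 (SE 0.07, adjusted p = 1.5e-15) was the largest fall of this list. Ccr2, the receptor of CCL2, fell from 81.1 ± 14.3 to 46.7 ± 5.8 CPM. Ccrl2, an atypical receptor, rose from 33.7 ± 2.55 to 587 ± 45.7 CPM, and the formyl peptide receptors Fpr2 and Fpr1 rose by 3.06 and 2.63 on the log2 scale.

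Receptors for nucleotides, lipids and metabolites held some of the steepest changes in both directions, with 10 of 20 rows higher and 7 lower. With library totals 9 were higher and 10 lower. Adora2a and Adora2b, the A2 receptors for adenosine, rose from 0.655 ± 0.0996 to 94.1 ± 6.39 CPM and 3.04 ± 0.609 to 18.8 ± 1.99 CPM. Hcar2, a receptor for nicotinic acid and ketone bodies, rose by 5.95 and Gpr132 by 3.21 on the log2 scale. Lpar6, a receptor for lysophosphatidic acid at chr14:73237891-73240358 (plus strand), stood at 126, 133 and 125 CPM in Veh and 7.71, 7.23 and 6.95 CPM in LPS. It fell by 4.13 (log2), and the sphingosine-1-phosphate receptors S1pr1 and S1pr2 fell from 62.3 ± 7.11 to 23.6 ± 2.28 CPM and 255 ± 6.36 to 104 ± 0.571 CPM. Of 23 rows for Fc, scavenger and pattern-binding receptors 8 rose and 8 fell, 34.8% each way and near the shares of all rows (32.6% and 31.0%). With library totals 5 of these rose and 15 fell. Clec4e, the C-type lectin Mincle, rose from 10.4 ± 1.04 to 1497 ± 6.71 CPM, and Olr1 and Marco rose by 8.07 and 4.37 on the log2 scale. The row Msr1.1 of the scavenger receptor A gene rose from 101 to 587 CPM. The high-affinity IgG receptor Fcgr1 and the efferocytosis receptor Mertk fell from 132 ± 20.3 to 73.3 ± 7.87 CPM and 63.1 ± 0.803 to 36 ± 1.21 CPM.

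Adhesion and matrix genes were mostly raised. Of 25 rows for adhesion and costimulatory molecules 16 rose and 2 fell, or 4 fell without LPS replicate 2. With library totals 13 of these rose and 6 fell. Icam1, a ligand of β2 integrins at chr9:21015960-21028796 (plus strand), stood at 33.1, 36.5 and 41.7 CPM in Veh and 4074, 3679 and 3831 CPM in LPS. Its fitted fold was 104, and Vcam1, the ligand of the integrin α4β1, rose from 0.426 ± 0.109 to 77.4 ± 3.61 CPM. Itga5 and Itgav, integrin α chains, rose by 1.99 and 2.05 on the log2 scale. Among costimulatory ligands, Icosl rose from 4.29 to 192 CPM, Cd80 from 3.67 to 10.3 CPM, Cd274 (PD-L1) from 153 to 315 CPM and Cd86 from 16.5 to 23.3 CPM. Of 23 rows for matrix and coagulation genes 17 rose and 3 fell, or 14 and 6 with library totals. Mmp14 and Mmp13, matrix metalloproteinases, rose from 2.29 to 136 CPM and 43.3 to 274 CPM. Plaur, the urokinase receptor, rose from 63.2 to 307 CPM, the tissue factor gene F3 from 1.32 to 5.83 CPM and the complement gene C3 from 199 to 749 CPM. Thbd, which encodes the anticoagulant thrombomodulin, fell from 19.5 ± 0.686 to 4.43 ± 0.486 CPM.

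**Figure D5:**
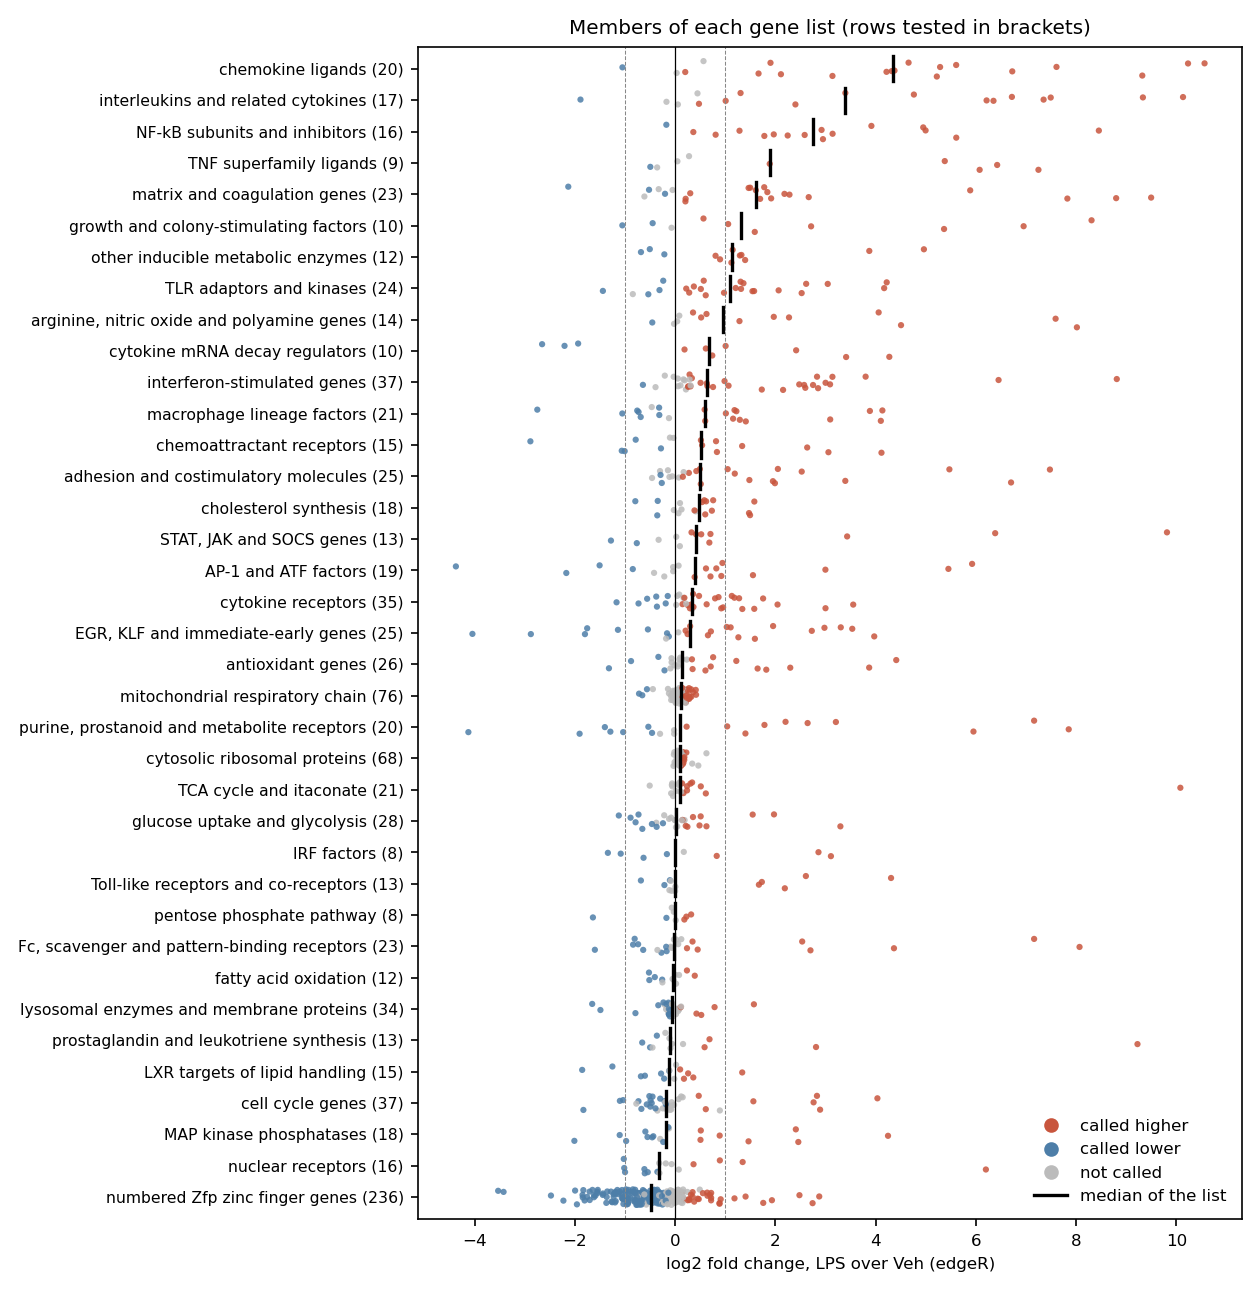
Each point is a tested row of a gene list with its edgeR log2 fold change, LPS over Veh; red was called higher, blue lower, grey not called, black bars are list medians, and dashed lines mark 2-fold. The medians run from 4.35 for chemokine ligands to -0.48 for numbered Zfp genes, and the glycolysis, pentose phosphate and TCA cycle lists have medians near 0.

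Metabolic lists differed in how many of their members moved. Of 21 rows for the TCA cycle and itaconate, 9 rose and none fell, but apart from Irg1 the largest log2 fold change was 0.61, for Dld. With library totals 3 rose and 13 fell, and without LPS replicate 2 there were 2 lower members. In the arginine and nitric oxide list 10 of 14 rows rose, 7 of them over 2-fold, and 1 fell. Nos2, the inducible nitric oxide synthase, stood at 0.166, 0.0684 and 0.24 CPM in Veh and 33.5, 29.1 and 36.1 CPM in LPS. All Veh libraries were near no reads, and the log2 fold change was 7.59 (SE 0.21, adjusted p = 1e-14). Gch1, which makes the first precursor of its cofactor tetrahydrobiopterin, rose from 46.1 ± 0.212 to 222 ± 6.45 CPM. The arginine transporters Slc7a2 and Slc7a1 rose by 4.51 and 1.28, Odc1, the first enzyme of polyamine synthesis, by 1.97 and Arg2, mitochondrial arginase, by 4.06 on the log2 scale. In prostaglandin and leukotriene synthesis Ptges, prostaglandin E synthase, rose from 3.33 ± 0.662 to 23.1 ± 1.76 CPM beside Ptgs2. The constitutive cyclooxygenase Ptgs1 fell from 30.3 ± 1.55 to 23.5 ± 1.0 CPM and the prostaglandin D synthase Hpgds from 393 ± 7.52 to 277 ± 5.05 CPM. In this list 4 of 13 rows were higher and 3 lower (30.8% and 23.1%, against 32.6% and 31.0% of all rows). There were 6 lower without LPS replicate 2 and 7 lower with library totals.

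Glucose metabolism had no common direction. Of 28 rows for glucose uptake and glycolysis 10 rose and 8 fell, with a median log2 fold change of 0.01. These shares, 35.7% and 28.6%, are near the 32.6% and 31.0% of all rows, and with library totals 5 rose and 15 fell. The transporters Slc2a1 (GLUT1) and Slc2a6 rose from 109 ± 3.78 to 429 ± 11.6 CPM and 4.02 ± 0.414 to 39.3 ± 0.449 CPM. Slc2a3 fell by 0.66 on the log2 scale. Pfkfb4 and Pdk2, regulators of phosphofructokinase and pyruvate dehydrogenase, fell from 78.2 to 35.8 CPM and 23 to 12.4 CPM, and Pfkfb3 could not be tested, with 103 unshared bases. The glycolytic enzyme Tpi1 did not pass, at -0.08 on the log2 scale. In the pentose phosphate pathway Shpk, the sedoheptulose kinase, fell from 5.61 ± 1.01 to 1.79 ± 0.14 CPM, and the dehydrogenase G6pdx did not pass, at -0.03 on the log2 scale. Fatty acid oxidation had 2 of 12 rows higher and 4 lower (16.7% and 33.3%), and with library totals 1 rose and 10 fell. Cpt1a, the carnitine palmitoyltransferase of mitochondrial import, fell from 227 ± 5.01 to 159 ± 5.14 CPM.

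Sterol genes diverged. Of 18 rows for cholesterol synthesis 10 rose and 3 fell. Idi1 and Cyp51 rose by 1.49 and 1.47 (log2), and Dhcr7, a late step, fell from 33.6 ± 0.214 to 19.4 ± 1.2 CPM. Among 15 rows for LXR targets of lipid handling 5 rose and 7 fell. Without Veh replicate 3 or LPS replicate 1, 3 rose, and with library totals 1 rose and 10 fell. The cholesterol efflux transporters went opposite ways. Abca1 stood at 749, 758 and 756 CPM in Veh and 1966, 1719 and 2029.9 CPM in LPS. Abcg1 stood at 942, 944 and 937 CPM in Veh and 389, 386 and 408 CPM in LPS. Neither gene's groups overlapped, and the log2 fold changes were 1.34 (SE 0.05, adjusted p = 1.6e-12) and -1.25 (SE 0.04, adjusted p = 7.9e-14). Arl4c fell from 264 ± 6.12 to 72.8 ± 5.66 CPM and Scd2 from 67.4 ± 7.64 to 41.8 ± 5.13 CPM. Ch25h, which makes 25-hydroxycholesterol, rose from 1.62 ± 0.421 to 51.3 ± 8.11 CPM.

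Among antioxidant genes 11 of 26 rows rose and 4 fell, and with library totals 9 rose and 10 fell. Sod2, mitochondrial superoxide dismutase, rose from 82.6 ± 1.41 to 1209 ± 12.9 CPM and Slc7a11, the cystine importer, from 20.3 ± 1.54 to 434 ± 37.4 CPM. Nfe2l2, which encodes the antioxidant factor NRF2, rose from 572 ± 14.6 to 1788 ± 23.9 CPM, and Prdx5 and Srxn1 by 1.82 and 0.76 on the log2 scale. Other targets named for NRF2 did not pass, with log2 fold changes of 0.14 for Nqo1 and -0.02 for Hmox1. Of the remaining inducible enzymes, Nampt (NAD synthesis), Acsl1 (fatty acid activation) and Mthfd2 (mitochondrial folate metabolism) rose by 1.32, 1.29 and 1.39 (log2), and Plin2, a lipid droplet protein, fell from 1583 ± 60.1 to 985 ± 25.5 CPM. Rows for the mitochondrial respiratory chain had 26 of 76 higher, a share of 34.2% against 32.6% of all rows, and 3 lower at a median of 0.12. Rows for cytosolic ribosomal proteins had 16 of 68 higher and none lower at 0.10. Without LPS replicate 3 the counts higher were 45 and 55, without LPS replicate 2 they were 14 and 6, and ribosomal proteins had 4 higher without Veh replicate 1 or LPS replicate 1 and 5 without Veh replicate 2. With library totals the respiratory chain had 1 higher and 41 lower and the ribosomal proteins none higher and 56 lower, so the direction of these 2 lists depends on the scaling.

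The 15 largest falls were of genes with Veh means between 10.1 CPM (Sox4) and 128 CPM (Lpar6). The median Veh level of all genes with 1 row was 33.8 CPM. Bmf, a pro-apoptotic BH3-only protein at chr2:118528757-118549678 (minus strand), stood at 31.9, 34.1 and 32.8 CPM in Veh and 1.15, 0.753 and 2.16 CPM in LPS. Fbxo32, an F-box subunit of a ubiquitin ligase, stood at 21.5, 23.3 and 20.2 CPM in Veh and 1.15, 1.13 and 0.879 CPM in LPS. Foxo3, a forkhead transcription factor, stood at 121, 123 and 108 CPM in Veh and 12.5, 12.7 and 13.2 CPM in LPS. The log2 fold changes were -4.61, -4.35 and -3.2. The 15 largest falls were picked among rows with no overlap between groups. Angptl4, an inhibitor of lipoprotein lipase, fell by 4.22, and the GSK3-binding proteins Frat1 and Frat2 fell by 4.13 and 3.50 on the log2 scale. Sox4, Arrdc3, Cnr2 and Zfp395 had log2 fold changes of -3.97, -3.88, -3.57 and -3.43. Cnr2 encodes a cannabinoid receptor. Spry3 fell by 3.70 (log2) on a row that the table places on an unlocalized contig of chromosome X. Hmga2-ps1, at a log2 fold change of -3.63, is named as a pseudogene, so reads of its parent gene may be split with it. Adjusted p-values from edgeR for the 15 largest falls were at most 6.9e-11.

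Numbered Zfp zinc finger genes, many of which encode KRAB-family repressors, fell more often than they rose. Of 236 rows tested, 141 fell and 28 rose, with a median log2 fold change of -0.48, and 46 fell and 7 rose over 2-fold. That is 59.7% of these rows lower, against 31.0% of all rows. With library totals 188 fell and 16 rose. Zfp791 fell from 2.53 to 0.214 CPM, Zfp395 from 85.3 to 7.92 CPM, Zfp9 from 1.21 to 0.211 CPM and Zfp248 from 3.99 to 0.84 CPM. In the LPS libraries 3 counts equal 0.226 to 0.246 CPM, so the folds of Zfp791 and Zfp9 depend on very few reads. Zfp263 rose from 102 ± 2.04 to 684 ± 26.9 CPM and Zfp800 from 34.4 ± 1.14 to 131 ± 7.77 CPM. Of 37 rows for the cell cycle 7 rose and 15 fell (18.9% and 40.5%), and with library totals 6 rose and 24 fell. E2f2, Gmnn and Cdt1, genes that act in the control of DNA replication, fell from 12 to 3.36 CPM, 27.5 to 12.8 CPM and 51.6 to 25 CPM. Ccnd2, E2f8 and Mki67 rose by 2.89, 2.83 and 2.76 on the log2 scale. Lysosomal genes had 5 of 34 rows higher and 12 lower (14.7% and 35.3%) at a median of -0.07. There were 7 lower without Veh replicate 3 and 8 higher without LPS replicate 3. With library totals 4 were higher and 28 lower. Ctsc, the cathepsin C gene, rose by 0.78, and the abundant cathepsin D gene Ctsd did not pass, at -0.04 on the log2 scale.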

How the data were processed

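Bone-marrow-derived macrophage RNA (3 Veh and 3 LPS cultures) was analysed from the deposited table of raw counts per RefSeq transcript. The authors trimmed reads with cutadapt, aligned them to mm10 with HISAT2 and made the counts with featureCounts. A read on bases shared by several rows was not counted, so a gene with overlapping transcripts is measured on its unshared bases only. The 3 T0+LPS libraries were not used here. Totals of 13299044 to 16467983 counts per library set the precision.

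Rows passing filterByExpr were fitted with edgeR 4.0.16 in R 4.3.3 (TMM factors, quasi-likelihood test, Benjamini-Hochberg adjustment over 9768 rows, 2-sided). The standard error is the log2 fold change divided by the square root of F. Where 3 counts or fewer were present in every Veh library, pooled counts with exact 95% intervals are given. The procedure was tested on simulated data of 9768 rows. In each run 200 rows with a mean of at least 10 counts in Veh were changed, as many up as down. Recovery of rows with lower Veh counts was not examined. It recovered 146 of 200 at 1.5-fold and 190 of 200 at 2-fold, with 10 false calls each. In the data 63.6% of rows were called, so the simulation does not test the scaling. DESeq2 1.42.0 and limma 3.58.1 (voom), other scalings, filters and left-out libraries were alternatives.

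The gene lists and named genes were chosen with earlier results of these data known. Named genes are the 15 largest rises and falls (called, no overlap, mean of at least 5 CPM, above the floor of 3 counts), rows at that floor, called members of each list, and members that did not pass, with their values. The receptor complex and its adaptors were named whatever their values. Some genes that meet this rule are not reported here.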

Additional observations from a re-analysis of the deposited data

How the results depend on the processing

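Against the counts of 3188 rows higher and 3029 lower, 19 alternatives were tried, among them the main fit read at an adjusted p under 0.10. Library totals gave 1742 higher and 5462 lower (24.2% and 75.8% of calls), with 1246 over 2-fold lower in place of 735, and upper-quartile factors gave 2174 and 4477 (32.7% and 67.3%). The median change over all rows was then -0.28 and -0.18 on the log2 scale, so list directions that rest on small changes depend on the scaling. Rows over 8-fold lower, 27 in number, became 58 with at least 10 counts, 70 with no filter on low counts (15924 rows) and 51 with DESeq2, which was run on the same 15924 rows, so that tool and filter changed together. A test against 2-fold (glmTreat) left 339 rows lower. Leaving out each library in turn gave 2967 to 3203 rows higher, 2806 to 3104 lower and 224 to 246 over 8-fold higher. Nothing in the labels pairs same-numbered libraries, whose deviations from the group means correlated at -0.01 to 0.04, and the fit with the replicate number as a block called 3098 rows higher and 2981 lower. With library totals the small log2 differences of Ccl6, Mmp8, Tnfrsf1a and Ticam1 became -0.0809, -0.0775, -0.0976 and -0.0013. Of 245 named rows, 231 had the same call and direction in every alternative except the test against 2-fold, in which they were not compared. Many were named for being called with large changes, so such agreement was likely from the start.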

Other observations

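Several genes outside the lists also made large gains, and they were picked after their values were seen. Sdc4, a heparan sulfate proteoglycan of the cell surface, had means of 163 CPM in Veh and 3488 CPM in LPS. Nlrp3, the sensor protein of an inflammasome, had means of 57.6 and 2493 CPM, and Ehd1, a protein of endosomal recycling, of 66.9 and 2024 CPM. Cybb, a membrane subunit of the phagocyte NADPH oxidase, went from 2237 to 5253 CPM. Cd300lb, a receptor of myeloid cells, fell from 829.9 to 219 CPM. The row of the microRNA precursor Mir155, which is 65 bases long at chr16:84714140-84714204 of mm10, had no read in Veh and 6.72, 6.55 and 6.87 CPM in LPS, at least 36.8-fold higher when Veh is set to 3 counts a library. Reads of polyadenylated RNA on that row are of the primary transcript or its fragments, and the mature microRNA was not measured.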
